A study of Mus musculus with 4 samples.

Results

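Open chromatin inside genes that every library called was described in 2TS22C cells, a line of mouse embryonic stem cells. Openness was assayed with ATAC-seq, which uses a transposase to put adapters into DNA that is free of nucleosomes. The regions were chosen from the readout itself. Overlapping intervals of the 4 deposited peak lists were merged on chromosomes 1 to 19, which gave 166883 regions, and 56427 of these were called in all 4 libraries and are termed shared. A shared region was kept when it overlapped a protein-coding gene span of the mm10 build and lay more than 1 kb from every gene end. These interior regions numbered 21594, which is 38.27% of the shared regions (exact binomial 95% interval 37.87% to 38.67%, counting error only) and 27.27% of the 79188 merged regions in that position. Because calls in all 4 libraries chose them, their number and their presence are a description, with no test.

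The cells of both groups were treated with DOX and had their endogenous Sox2 silenced, and a lentivirus supplied their SOX factor. In the SOX17FNV group that factor was SOX17FNV, an engineered form of the endoderm factor SOX17, and in the SOX2 group it was SOX2, a factor needed for pluripotency. All cells grew in 2i serum/LIF medium. Each group had 2 libraries of 900000 cells, which the titles call biological replicates. The labels do not tell separate cultures from repeat preparations, so the spread within a group may be technical. The lists held 120341 and 92851 peaks for SOX17FNV and 123214 and 96500 for SOX2. Read totals were not used here. The measure was the summit pileup, the number of reads stacked on a peak's summit, solved from the fold and p-value deposited for each peak. At the interior regions its median was 30 and 22 reads in SOX17FNV and 31 and 25 in SOX2, higher in replicate 1 of each group. Pileup mixes depth with enrichment, and the background pileup of a list was 3.91 and 3.27 in SOX17FNV and 4.17 and 5.02 in SOX2. The ends of all 12 embryonic stem cell marker genes examined, such as Pou5f1 and Nanog, were called in each of the 4 libraries. Of these 12 genes, 5 held an interior region. Of 7 fibroblast marker genes, none held an interior shared region, and the number with an end called was 3 in every library. In the wider fibroblast list used below, 3 of 12 genes held one, among them Fn1 with 5. Of 6 endoderm markers 4 held an interior region and 4 or 5 had an end called in a library, and of 6 neural progenitor markers 4 held one and 5 or 6 had an end called.

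Regulatory DNA inside genes takes several forms. Introns hold enhancers, short stretches where transcription factors bind and displace nucleosomes, and these may act on the surrounding gene or on another gene nearby. A gene can also hold start sites of shorter transcripts, and the body of a host gene can hold the start of a microRNA or another non-coding RNA. In mouse embryonic stem cells, genes of the naive pluripotency network such as Esrrb and Tfcp2l1 are known for enhancers of this kind, bound by OCT4, SOX2, NANOG and ESRRB.

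Sequences were matched by position for annotated starts and for microRNAs, in the RefSeq tables of GRCm38.p6, whose coordinates are those of mm10. Interior regions held 38 of 919 microRNA hairpins, in 33 regions, and 2 of these regions held stem cell microRNAs. The region chr3:127544563-127545520 in Larp7, which encodes a protein of the 7SK RNA complex, lay over hairpins of the miR-302 cluster. The region chr7:3220238-3221335 in the span annotated as Nlrp12 lay over miR-293, miR-294 and miR-295. Both clusters are abundant in pluripotent cells and promote fast cell cycling there. Mature strands of both clusters are shown because 4 of the 5 share the seed AAGUGCU or its shift by 1 base, and miR-293-3p, with GUGCCGC, is shown as a member of the same cluster. Capitals mark bases 2 to 8, the seed that pairs with target messages.
mmu-miR-302b-3p: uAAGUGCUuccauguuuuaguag
mmu-miR-302c-3p: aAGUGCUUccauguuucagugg
mmu-miR-294-3p: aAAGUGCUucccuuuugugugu
mmu-miR-295-3p: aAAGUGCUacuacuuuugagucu
mmu-miR-293-3p: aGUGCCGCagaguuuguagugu
AAGUGCU was the seed of 3 mature strands in interior regions, miR-294-3p, miR-295-3p and miR-302b-3p, and no other seed was found in as many. The Larp7 region had summit pileups of 54 and 43 in the SOX17FNV libraries and of 36 and 43 in the SOX2 libraries. The Nlrp12 region had 58 and 47 in SOX17FNV and 69 and 60 in SOX2. Within the lists the Nlrp12 region stood at the percentiles 93.7 and 93.2 of pileup in SOX17FNV and 97.4 and 96.9 in SOX2, so it was among the strong regions of every library. An open region over a hairpin does not measure its transcription.

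Of the 20877 interior regions on chromosomes that the start table covers, 1153 (5.523%) held an annotated start of the gene around them, and these belonged to 1089 genes. Windows of 250 bases before to 50 bases after such a start are shown for 4 genes. Jade1, a scaffold of a histone acetyltransferase complex, and Ston1, an adaptor of endocytosis, were among the genes with the densest interior regions. Esrrb encodes a nuclear receptor of naive cells and Lifr the receptor for the LIF in the medium. Capitals mark matches, on either strand, to the SOX core CATTGT, the octamer ATGCAAAT, the ESRRB half-site CAAGGTCA and the GC box GGGCGG, and the windows are written along the gene's own strand, which is the plus strand for all 4.
Jade1 chr3:41564630-41564929: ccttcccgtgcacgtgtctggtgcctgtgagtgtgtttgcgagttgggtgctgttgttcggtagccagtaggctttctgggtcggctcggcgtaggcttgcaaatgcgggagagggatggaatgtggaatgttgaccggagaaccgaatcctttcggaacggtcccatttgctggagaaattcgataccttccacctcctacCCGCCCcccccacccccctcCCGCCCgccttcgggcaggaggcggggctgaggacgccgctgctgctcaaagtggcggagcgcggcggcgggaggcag
Ston1 chr17:88626305-88626604: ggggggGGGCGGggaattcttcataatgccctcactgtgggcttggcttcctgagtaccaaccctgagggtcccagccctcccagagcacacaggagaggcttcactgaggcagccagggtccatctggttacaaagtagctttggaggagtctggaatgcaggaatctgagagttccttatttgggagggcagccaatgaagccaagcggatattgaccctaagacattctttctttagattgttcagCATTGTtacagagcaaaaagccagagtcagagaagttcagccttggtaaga
Esrrb chr12:86421394-86421693: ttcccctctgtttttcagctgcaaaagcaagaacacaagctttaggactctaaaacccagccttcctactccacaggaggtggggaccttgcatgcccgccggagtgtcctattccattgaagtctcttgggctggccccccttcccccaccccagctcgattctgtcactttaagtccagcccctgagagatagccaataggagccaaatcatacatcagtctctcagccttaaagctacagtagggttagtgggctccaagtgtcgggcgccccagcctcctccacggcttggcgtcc
Lifr chr15:7129322-7129621: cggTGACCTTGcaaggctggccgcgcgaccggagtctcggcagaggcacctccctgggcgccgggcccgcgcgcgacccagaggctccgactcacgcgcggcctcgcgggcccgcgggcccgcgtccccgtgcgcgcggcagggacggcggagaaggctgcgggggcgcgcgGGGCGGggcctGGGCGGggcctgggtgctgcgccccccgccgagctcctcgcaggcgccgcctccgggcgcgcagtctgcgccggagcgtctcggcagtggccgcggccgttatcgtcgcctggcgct
The Jade1 window held 2 GC boxes and the Ston1 window 1 GC box and 1 SOX core. The Lifr window held 2 GC boxes and 1 ESRRB half-site, and the Esrrb window held none of the 4 motifs. Over the 1328 windows of internal starts in interior regions, 60.2% held a GC box, against 36.0% of all 31396 windows in the table. The SOX core was in 7.98% of the internal start windows and 12.2% of all windows, the octamer in 1.66% and 1.75%, and the ESRRB half-site in 1.36% and 1.54%. These matches describe the letters of the windows and not binding.

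Regions over an internal start of their own gene were strong and wide. Their median pileup was 47 and 35 in SOX17FNV and 49 and 40 in SOX2, against 29 and 22 in SOX17FNV and 30 and 25 in SOX2 for interior regions with no annotated start. In every library the first kind was higher. Their median width was 1092 bp, against 749 bp. The annotated start of a long non-coding RNA lay in 357 interior regions (1.71%), and some of these also held a start of the gene around them. In all, 1415 of the 20877 (6.778%) held a start of some annotated gene.

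Interior regions were denser than regions outside genes. There were 2.292 per 100 kb of gene interior, or 1 per 43.63 kb, and 1.441 shared regions per 100 kb outside genes, a ratio of 1.59. Over all regions called by a library, the same ratio was 1.736 and 1.665 for SOX17FNV and 1.747 and 1.686 for SOX2. Stricter peak thresholds lowered it but left it above 1, at 1.448 with peaks of -log10 q of at least 5 and 1.352 with at least 10. A typical interior region was 764 bp wide (quartiles 580 and 1021 bp) and lay 16129 bp from the nearest gene end. The 4 libraries' own peaks had a median of 318 bp in common, and 610 interior regions had no base common to all 4 lists, as merging also joins peaks that overlap only in a chain.

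The strength of interior regions was set against that of the other shared regions within each library. Percentiles of pileup were taken over all regions of a list. The median percentile of interior regions was 67.65 and 58.56 in SOX17FNV and 67.2 and 58.81 in SOX2. For shared regions within 1 kb of a gene end, of which there were 14477, it was 86.88 and 84.81 in SOX17FNV and 87.97 and 85.41 in SOX2. Interior regions were lower in 4 of 4 libraries, by 23.2 ± 3.77 percentile points (SD, n = 4). They were also narrower, with peaks of 539 ± 83.2 bp against 852.8 ± 88.7 bp at gene ends (SD, n = 4 libraries). Each of these differences had an exact sign-flip p of 0.125, two-sided, or 0.167 after Benjamini-Hochberg adjustment over 4 comparisons, and 0.125 is the smallest that 4 libraries can give. The 20356 shared regions outside genes were close in strength, at 63.06 ± 5.05 for interior regions and 63.5 ± 5.59 for those outside (SD, n = 4, exact p = 1). Interior peaks were narrower than those outside by 9.0 ± 4.97 bp, in 4 of 4 libraries (exact p = 0.125, adjusted 0.167). They were wider by 15.88 bp with peaks of -log10 q of at least 10 and by 1.0 bp with no minimum distance from gene ends.

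**Figure D1:**
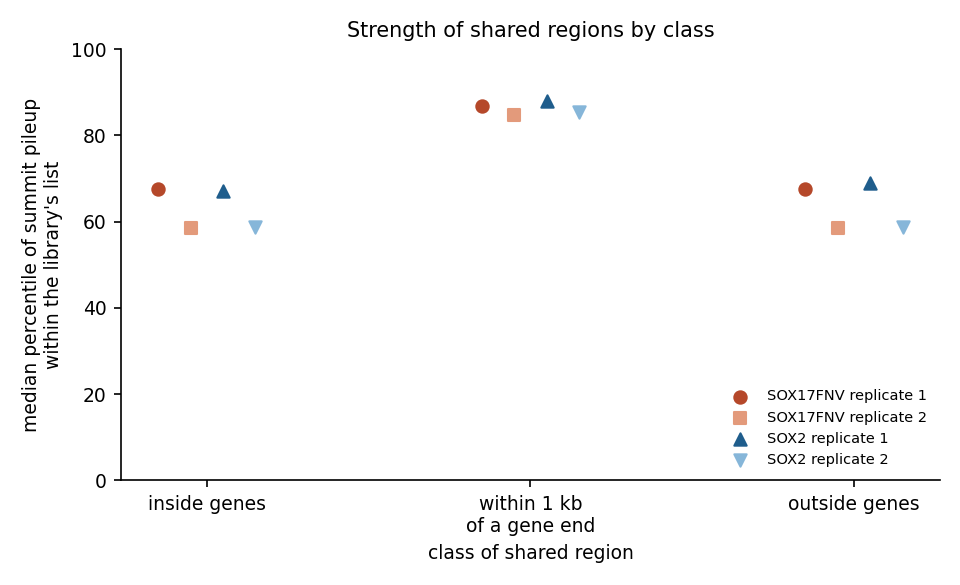
Median percentile of summit pileup within a library's list (y axis, percent) for shared regions inside genes, within 1 kb of a gene end and outside genes (x axis), with 1 point per library. Interior regions lie at 58.56 to 67.65 in the 4 libraries and regions at gene ends at 84.81 to 87.97.

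The choice of members had a threshold in distance and another in calls. Just inside the distance threshold, 829 interior regions in the first 0.5 kb beyond 1 kb had a mean over libraries of the median percentile of 73.57. Just outside it, 1187 shared regions in the last 0.5 kb within 1 kb of a gene end had 74.9. For calls, the 11275 regions inside genes called in 3 libraries had a median width of 521 bp and a median percentile of 36.76, against 764 bp and 61.51 for those called in all 4. Regions called in a single library, 31331 in number, had 233 bp and 17.32.

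Interior regions reached a minority of genes. Of 20661 protein-coding genes on these chromosomes, 8386 (40.59%) held at least 1, and 3893 of those held exactly 1. At the other end, 259 genes held 10 or more and together carried 16.37% of the interior regions. The share of genes with an interior region grew with span, at 6.634% of genes under 10 kb, 57.37% of genes of 20 to 50 kb and 90.7% of genes of 500 kb or more. Density went the other way among long genes. It was 3.341 per 100 kb of interior in genes of 20 to 50 kb, 3.069 in genes of 50 to 100 kb, 1.718 in genes of 200 to 500 kb and 0.7791 in genes of 500 kb or more.

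Strand was known for 70.38% of genes, which allowed a profile along the gene. From the 5′ end, density was 2.511 per 100 kb at 1 to 2 kb, 2.971 at 2 to 5 kb, 3.473 at 5 to 10 kb, 2.744 at 20 to 50 kb and 1.031 beyond 200 kb. From the 3′ end it was 2.007 at 1 to 2 kb, 3.61 at 2 to 5 kb, 3.242 at 5 to 10 kb, 2.726 at 20 to 50 kb and 0.9636 beyond 200 kb. Density was thus highest at 5 to 10 kb from the 5′ end and at 2 to 5 kb from the 3′ end, and lower at each greater distance. Since long genes supply all of the far positions, position was also measured as a share of the span. With spans cut into 10 equal parts, the density ranged from 2.181 to 2.361 per 100 kb. Neighbouring interior regions of a gene were a median of 11.15 kb apart, and 22.4% of the 13658 gaps were under 5 kb.

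**Figure D2:**
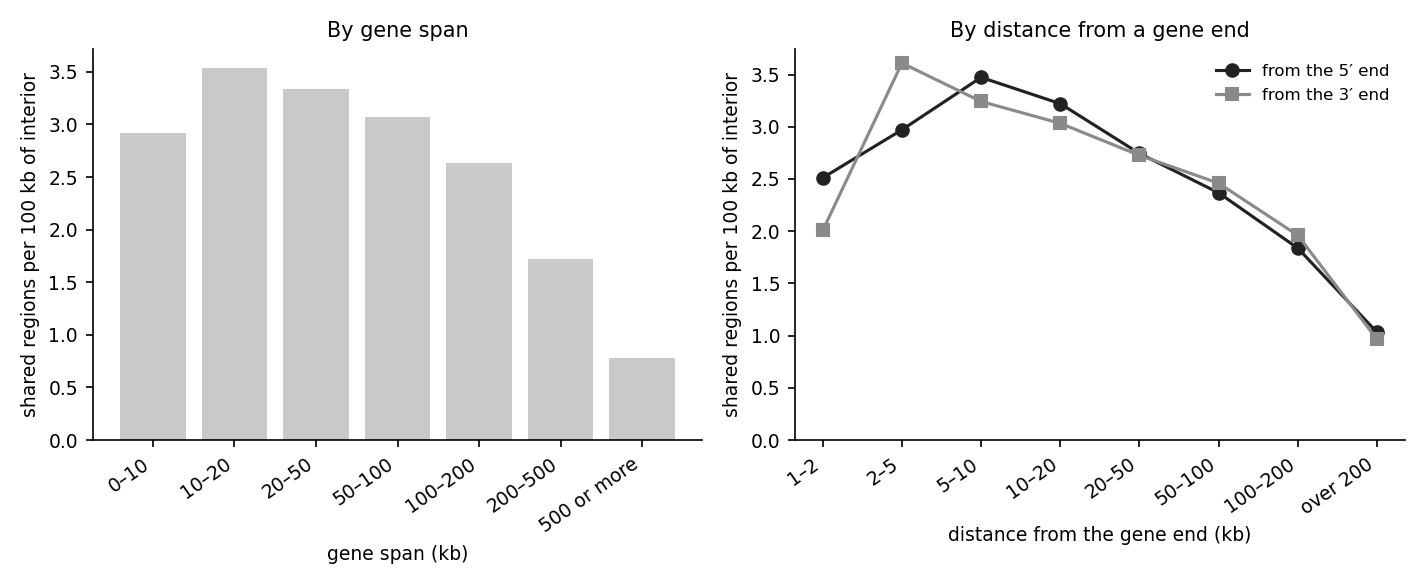
Shared interior regions per 100 kb of gene interior (y axes) by gene span in kb (left) and by distance in kb from the 5′ or 3′ end of the gene (right, genes with a known strand). Bars and points are densities over all genes of a class, with no error. Density falls from 3.341 in genes of 20 to 50 kb to 0.7791 in genes of 500 kb or more. A region must lie whole beyond 1 kb, which limits the 1 to 2 kb bins.

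Genes were ranked by interior regions per 100 kb of span among the 4724 genes of at least 50 kb. The median of these genes was 1.837 per 100 kb, the 95th percentile was 7.76, and 929 (19.67%) held none. The first 15 genes had 12.23 to 15.39. They were Sfi1, Rftn2, Ston1, Etv5, Reep3, Limk2, Mypn, C2cd5, Jade1, B4galnt3, Shld1, Clip2, Irak2, Elovl6 and Tfcp2l1, and the next, Zmynd8, had 12.19. Several kinds of gene stand in this list. Etv5 and Tfcp2l1 encode transcription factors of stem cells, Limk2 a kinase of the actin cytoskeleton, Shld1 a subunit of the shieldin complex of DNA repair, Elovl6 an enzyme of fatty acid elongation and Mypn a sarcomere protein of muscle. Interior regions in these genes were spaced by a median of 3.569 kb in Jade1 to 6.538 kb in Rftn2.

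The first places were held by counts of 7 to 13 regions per gene, and their order depended on how peaks and genes were chosen. Sfi1 had 11 interior regions over 71.5 kb, with 15 and 15 regions called in SOX17FNV and 17 and 17 in SOX2. Etv5 had 8 over 58.26 kb, with 13 and 10 called in SOX17FNV and 15 and 12 in SOX2. Both stayed among the first 15 under 11 of 12 alternative settings of peaks, libraries and distance. The other genes did so under 2 to 9 of the 12. Tfcp2l1 and Elovl6 stayed under 3 of them, and Irak2 under 2. Leaving out SOX17FNV replicate 2 kept 7 of the 15, and leaving out any other library kept 9 or 10. With a minimum span of 20 kb none of the 15 remained and Tfap2a came first, and with 100 kb only Elovl6 did.

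**Figure D3:**
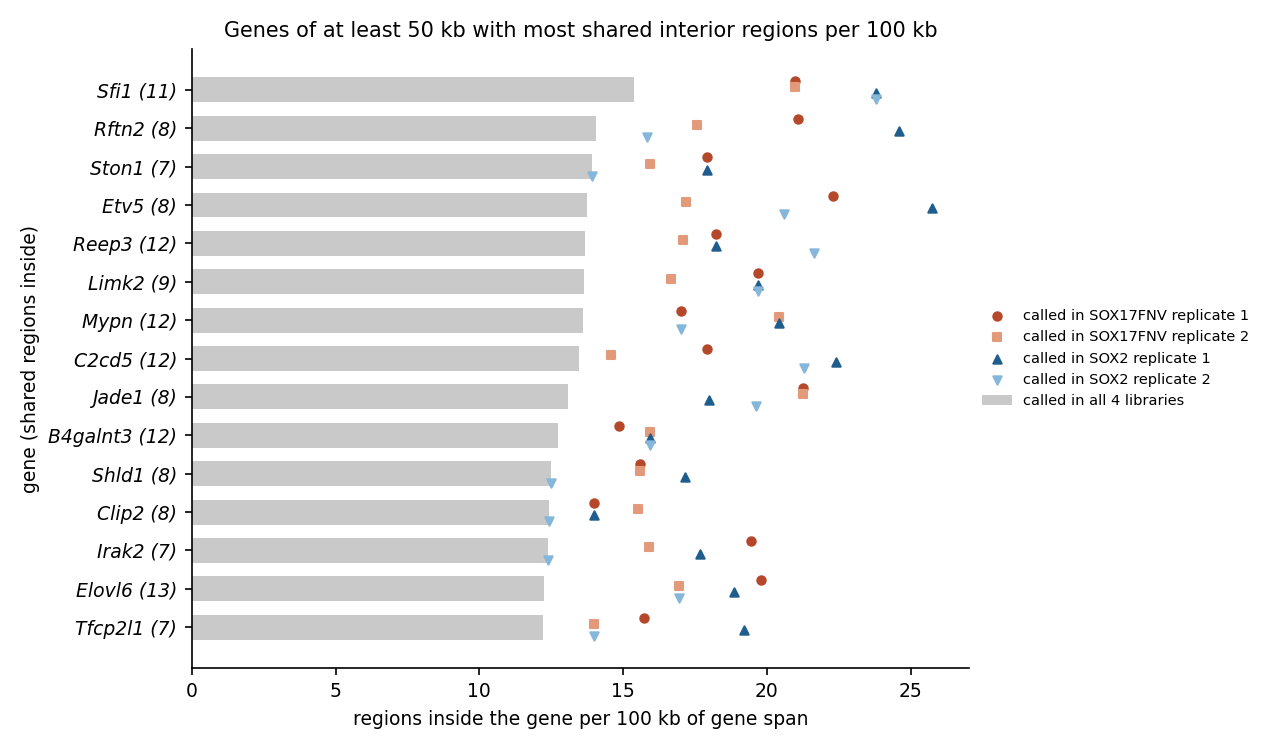
Regions inside the gene per 100 kb of gene span (x axis) for the 15 genes of at least 50 kb with the highest density of shared interior regions (y axis, with their number in parentheses). Bars count regions called in all 4 libraries and points those called in each library, so the points of Sfi1 and Etv5 lie well to the right of their bars of 15.39 and 13.73.

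Sfi1, which encodes a centrosome protein, also held the strongest interior region. The region chr11:3192844-3193856 had pileups of 128 and 129 in SOX17FNV and 129 and 122 in SOX2. Those in SOX17FNV replicate 1 and both SOX2 libraries were 3.69 to 4.36 times the median of the library's shared regions, and that in SOX17FNV replicate 2 was 5.38 times. The strongest 10 interior regions fell in few genes, since Tex14, a gene of germ cell bridges, held 4 of them. Its region chr11:87443285-87444137 had pileups of 103 and 90 in SOX17FNV and 122 and 101 in SOX2. The others lay in Zc3h7a, Mast3, Adgra2, Asah1 and the overlapping spans of Cmss1 and Filip1l, and the Mast3 region held an annotated start of its gene. Among all 10, the log2 ratio of SOX17FNV to SOX2 lay between -0.09 and 0.24. No list of problem regions was applied here, and whether reads in these regions mapped to single places was not tested.

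By number, the leaders were long genes. Ptprg, a receptor tyrosine phosphatase, held 39 interior regions over 688.6 kb, Dst, a cytoskeletal linker, 37, and Etl4 36. They were followed by Tenm3, a teneurin adhesion protein, with 30, by Macf1, another cytoskeletal linker, and Msi2, an RNA-binding protein, with 28 each, and by Pakap with 27. Dst and Macf1 were dense for their length, at 9.232 and 8.28 per 100 kb, whereas Tenm3 had 2.313. Gm37013, Gm38667 and Gm38666 held 29, 27 and 27, and all of these lay in other gene spans too, because these genes cover one protocadherin cluster on chromosome 18. Only 206 interior regions lay in more than 1 gene span.

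The 10 longest genes with no interior region were Ptprt, Nrg3, Cadm2, Cntnap5a, Nell1, Lrrtm4, Mdga2, Negr1, Cntnap5b and Cntnap5c, with spans of 648.9 to 1139 kb. Among them, Cadm2, Negr1 and the Cntnap5 genes encode neuronal adhesion proteins and Nrg3 encodes a neuregulin. As given above, 90.7% of genes of 500 kb or more did hold an interior region. These spans were not empty in single libraries. Ptprt had 9 and 3 regions called in SOX17FNV and 12 and 4 in SOX2, none of them in all 4. Cntnap5b had none in any library.

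Gene lists were set beside all protein-coding genes, of which 40.6% held an interior region and whose density was 2.2 per 100 kb of span. Of 12 naive pluripotency genes 9 did, with 8.95 per 100 kb. By density the other lists of stem cell genes were lower, although signalling genes and chromatin regulators held a region in a larger share of genes. Among general pluripotency genes, whose spans had a median of 7.01 kb, 3 of 12 held one, with 4.92 per 100 kb, and Pou5f1, Nanog and Sox2 held none. Among 10 formative and primed genes 5 did (3.42 per 100 kb), among 22 signalling genes 18 did (4.13), and among 26 chromatin regulators 23 did (2.74). Of 16 SOX factor genes 7 did (1.62), and Sox17 was among those with none. Among the lists of other tissues, 9 of 13 endoderm genes held one (4.02 per 100 kb), 7 of 12 neural progenitor genes (1.97) and 3 of 12 fibroblast genes (1.1). For 20 long neuronal adhesion and synapse genes it was 18, with 0.436 per 100 kb. Of 11 housekeeping genes 3 did, with 2.87 per 100 kb. Density also varied with span, so lists of unlike span are not compared on equal terms. The median span was 14.5 kb in the naive list and 1470 kb in the neuronal list. Over all protein-coding genes, those of 10 to 20 kb had 3.004 per 100 kb of span and those of 500 kb or more 0.7746.

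Esrrb held 17 of the naive list's 46 interior regions, the most of any gene in it. The span of Esrrb was 160.5 kb, which gave 10.59 per 100 kb at a median spacing of 4.661 kb, and the first of them lay 34.5 kb from its 5′ end. The region chr12:86501603-86502330, at 140.8 kb from the 5′ end, had pileups of 93 and 51 in SOX17FNV and 84 and 91 in SOX2. These were the highest of the gene except in SOX17FNV replicate 2, where the region at 143.3 kb had 59. The region over the internal start shown above had 31 and 20 in SOX17FNV and 34 and 26 in SOX2. Those were the lowest of the gene except in SOX2 replicate 2, where chr12:86463060-86463770 had 25. Tet2, which oxidises methylated DNA, had 8 regions (9.821 per 100 kb), Tfcp2l1 had 7 (12.23) and Nr5a2, a nuclear receptor, had 6 (5.09). Of the 7 Tfcp2l1 regions, 4 lay close together, from 14.82 to 22.6 kb from the 5′ end. The median pileup of its regions was 48 and 29 in SOX17FNV and 52 and 35 in SOX2, and the mean log2 ratio of SOX17FNV to SOX2 was -0.01. Klf2, Klf4 and Fgf4, with spans of 2.593 to 5.339 kb, held none.

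In the signalling list, Tcf7l1, the transcription factor that represses naive genes, had 15 interior regions (9.221 per 100 kb) and Gsk3b, the kinase that 2i medium inhibits, had 13 (8.276). Tcf7l2, a further partner of beta-catenin, had 9, Lifr 6 and Fgfr1 5, while Smad2 and Smad4, with spans of 70.66 and 69.0 kb, had none. Among chromatin regulators, Rere had 17 and Jarid2 and Kdm2b, proteins of Polycomb complexes, had 10 each. Ezh2, the Polycomb methyltransferase, had none in 65.0 kb. In the endoderm list, the laminin gene Lama1 had 7, the collagen gene Col4a2 6 and the transcription factor gene Gata4 5. In the neuronal list, the cadherin gene Cdh13 had 25, or 2.11 per 100 kb, the highest density of that list.

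**Figure D4:**
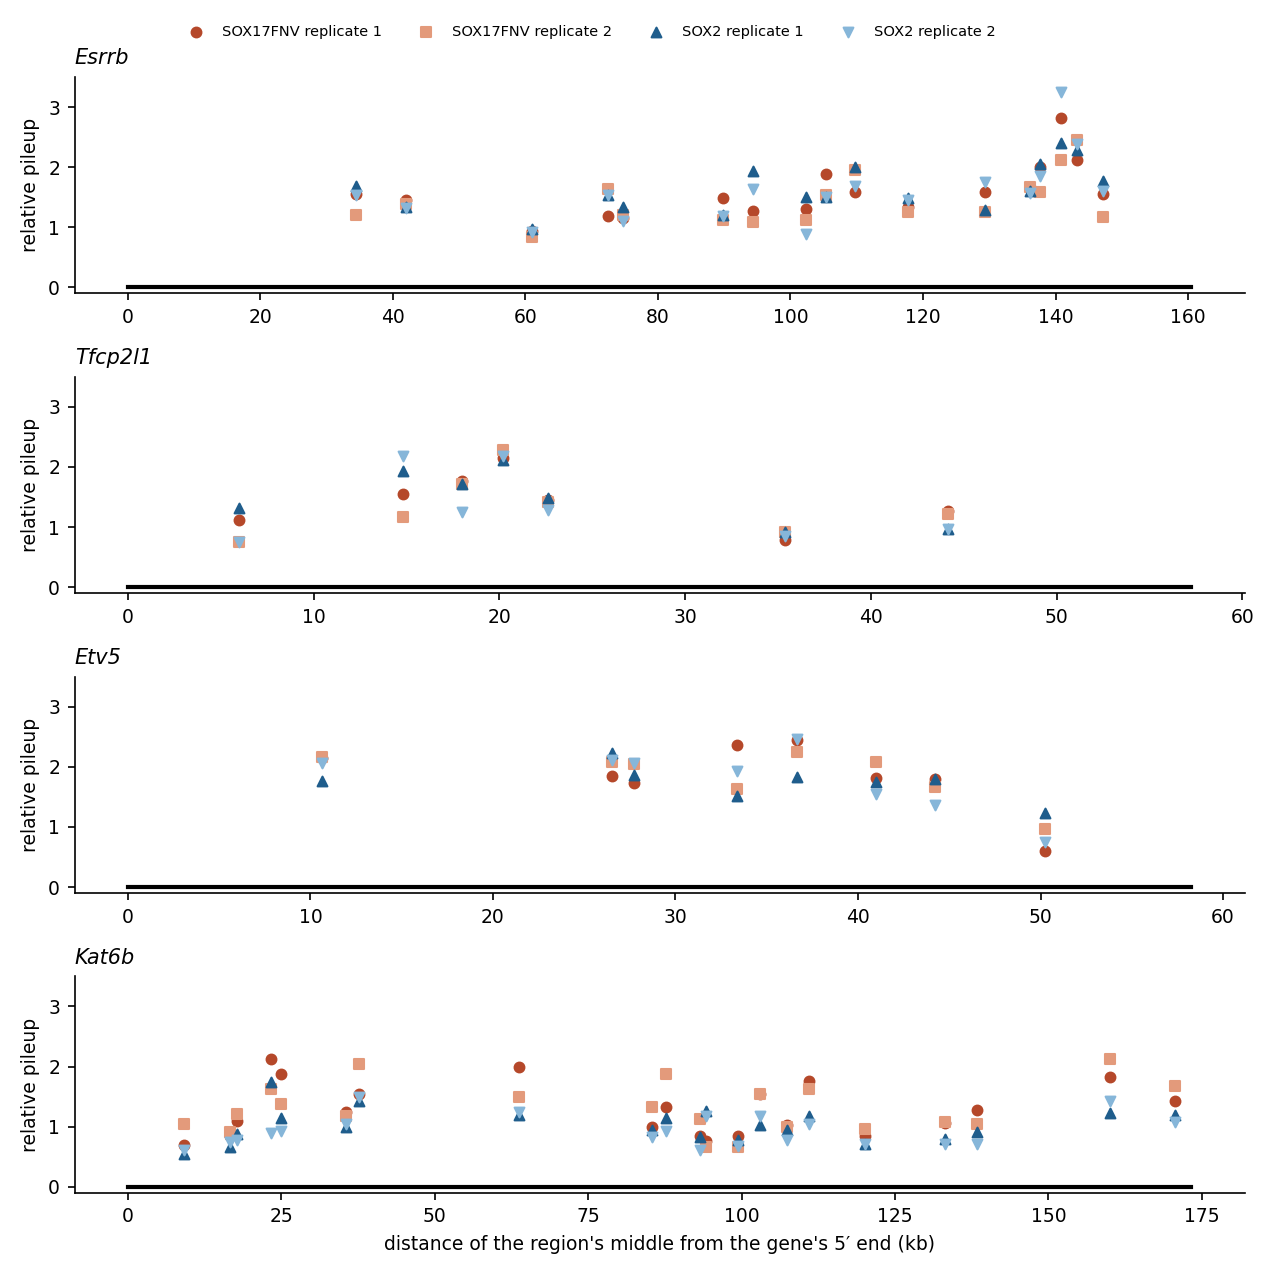
Relative pileup (y axis, pileup over the median of the library's shared regions) of each shared interior region of Esrrb, Tfcp2l1, Etv5 and Kat6b against the distance of its middle from the gene's 5′ end in kb (x axis), with 1 point per library and the gene span as a line at 0. These 4 genes were chosen for display after their values were seen. The Esrrb region at 140.8 kb is the highest of its gene in every library except SOX17FNV replicate 2. Kat6b lies on chromosome 14, where SOX17FNV was higher at interior regions in general.

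The groups were compared by pileup at the interior regions, each library scaled by the median of its shared regions. Over all interior regions the median log2 ratio of SOX17FNV to SOX2 was 0.03, against 0.04 over all shared regions. That small median moved with the processing, from -0.06 without SOX2 replicate 1 and -0.051 without SOX17FNV replicate 2 to 0.236 when lists were scaled by background, so no direction was read from it. The median size of the difference was 0.211 on the log2 scale between the means of the groups, and 0.236 in SOX17FNV and 0.226 in SOX2 between single replicates, which vary more than means. The groups did not overlap, with SOX17FNV higher, in 5226 interior regions (24.2%, against 24.4% of all shared regions), and with SOX17FNV lower in 4146 (19.2%, against 18.1%). Limma, fitted over all 56427 shared regions with Benjamini-Hochberg adjustment, called 164 interior regions at an adjusted p under 0.05, which is 0.759% of them, and the same fit called 0.615% of all shared regions. Of the 164, 43 were higher in SOX17FNV (0.175% of all shared regions were called higher) and 121 were lower (0.44% were called lower). Their log2 ratios were at least 0.989 in size. A region called in all 4 libraries has signal in both groups by construction, so regions open in a single group are not among them. In cells measured in bulk, fewer cells with an open region and a less open region in each cell cannot be told apart.

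The number of calls changed with the libraries used. Without SOX2 replicate 1 limma called no interior region, although 2295 had an unadjusted p under 0.05. In such a fit the lone library is assumed to vary like those of the other group, and the shared regions are those of the 3 libraries left. The 20 regions named below kept their direction there, with log2 ratios of 1.08 to 1.70 for the 10 higher and -1.94 to -1.46 for the 10 lower. The other left-out libraries gave 344 calls (SOX17FNV replicate 1), 106 (SOX17FNV replicate 2) and 401 (SOX2 replicate 2). Scaling by the background pileup of each list, which moved the median log2 ratio of all shared regions to 0.243, left 4 calls, all higher in SOX17FNV. Centring each chromosome left 133 calls, of which 16 were higher and 117 lower, so the share of higher calls was 12% against 26.2%.

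Regions that fell in SOX17FNV cells lay on every chromosome compared except chromosome 14, but not evenly. Chromosome 6 held the most, 16 of the 121, although it held only 1181 of the 21594 interior regions. Chromosome 15 came next with 10. The median log2 ratio of interior regions was also lowest on chromosome 6, at -0.09. Whether the calls were enriched there was not tested. The median pileup of the 121 regions was 18 and 14 in SOX17FNV, against 47 and 40 in SOX2. The region with the smallest p, chr2:124404332-124405394 in Sema6d, a semaphorin gene of axon guidance, had pileups of 14 and 10 in SOX17FNV and 46 and 43 in SOX2. The groups did not overlap, and the log2 ratio was -1.76 ± 0.21 (SE, limma adjusted p = 0.0117). In Fam135b the region chr15:71531844-71533339 had 15 and 10 in SOX17FNV and 54 and 37 in SOX2. In Rrn3, an initiation factor of RNA polymerase I, chr16:13785712-13786479 had 22 and 14 in SOX17FNV and 66 and 58 in SOX2. The next 7 by p lay in Pdgfc, a growth factor gene, Nedd9, Ptgs1, the cyclooxygenase COX-1, Trpm3, a cation channel, Zfp148, Ust and Pex13, with log2 ratios of -1.70 to -1.54. Scaled by background these 10 had log2 ratios of -1.55 to -1.34, and none was called. The 10 higher regions below had 1.43 to 1.81 with that scaling, and 3 were called. In SOX17FNV replicate 2 the lowest pileup of any interior region was 10. The regions in Sema6d, Fam135b, Ust and Pex13 had that value, so their log2 ratios rest on counts at the floor of that library.

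Regions that rose in SOX17FNV cells lay mostly on chromosome 14, which held 25 of the 43. The region chr14:123587412-123587937 in Nalcn, a sodium leak channel gene, had pileups of 50 and 39 in SOX17FNV and 20 and 13 in SOX2, with a log2 ratio of 1.61 ± 0.21 (SE, limma adjusted p = 0.0117). In Ngly1, which removes sugar chains from misfolded proteins, chr14:16283822-16284351 had 54 and 37 in SOX17FNV and 21 and 15 in SOX2. In both the groups were apart by more than their replicates. The 13 reads of the Nalcn region in SOX2 replicate 2 equalled the lowest pileup of any interior region in that library. Farp1, Cacna1d, Enox1, Gpc6 and Shld2 on the same chromosome held the others of the first 10, together with regions outside it. Among these, chr7:45229263-45230021 in Tead2, a partner of the growth regulator YAP, had 65 and 44 in SOX17FNV and 26 and 21 in SOX2, with a log2 ratio of 1.35 ± 0.21 (SE, limma adjusted p = 0.018). Prkcb on chromosome 7 and Cfap53 on chromosome 18 had log2 ratios of 1.26 and 1.23.

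Chromosome 14 stood apart as a whole. Its 1058 interior regions had a median relative pileup of 1.03 and 1.08 in SOX17FNV and 0.8 and 0.821 in SOX2, so the groups did not overlap. The median log2 ratio was 0.39 (1.31-fold), and the shared regions of chromosome 14 that were not interior had 0.37. On the 18 other chromosomes the median of interior regions lay between -0.09, on chromosome 6, and 0.08, on chromosome 8. The files hold peaks and not the number of copies of a chromosome, so more copies and more open chromatin cannot be told apart. Every result that rests on a gene of chromosome 14 carries this shift.

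**Figure D5:**
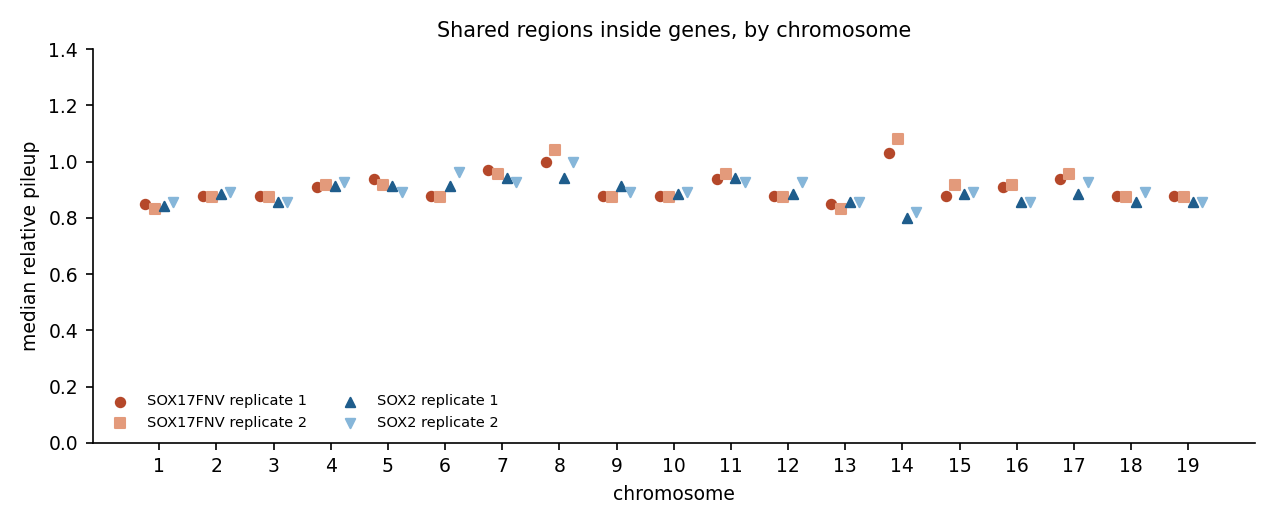
Median relative pileup of shared interior regions (y axis, pileup over the median of the library's shared regions) on chromosomes 1 to 19 (x axis), with 1 point per library. On chromosome 14 both SOX17FNV libraries, at 1.03 and 1.08, lie above both SOX2 libraries, at 0.8 and 0.821.

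Per gene, the mean relative pileup of interior regions was compared in the 259 genes with at least 10. The groups did not overlap, with SOX17FNV higher, in 60 genes (23.2%), and with SOX17FNV lower in 88 (34.0%). Over all 8386 genes with an interior region these shares were 25.9% and 19.1%. Those genes had a median of 2 regions, and 3893 had 1. Their means thus rest on fewer regions, and the shares are not compared on equal terms. On chromosome 14, 19 of 20 genes with at least 10 were higher and none was lower. The 88 lower genes include Pcdhga and Pcdhgb genes of chromosome 18 with overlapping spans, such as Pcdhga4 and Pcdhgb2, which hold the same 10 regions. A single cluster was thus counted several times, which raises the 34.0%. With 2 libraries in each group no exact permutation p can go below 0.333. The 5 genes with the highest ratios, Farp1, Enox1, Mbnl2, Abcc4 and Tsc22d1, all lay on chromosome 14. Farp1 had mean relative pileups of 1.27 and 1.38 in SOX17FNV and 0.759 and 0.804 in SOX2, a log2 ratio of 0.76 that was 0.39 after centring on its chromosome. Kat6b, a histone acetyltransferase gene with 21 interior regions at a spacing of 4.487 kb, had 1.21 and 1.25 in SOX17FNV and 0.99 and 0.902 in SOX2, a log2 ratio of 0.38 close to the chromosome's own.

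The 5 genes with the lowest ratios were Plekha5, Mical3 and Sox5 on chromosome 6, Kirrel3 on chromosome 9 and Trio on chromosome 15. Plekha5, a gene of a membrane-binding protein, had 16 interior regions with mean relative pileups of 0.693 and 0.754 in SOX17FNV and 1.03 and 1.1 in SOX2. Its log2 ratio was -0.56, and -0.46 after centring on chromosome 6. Sox5, a SOX factor gene of cartilage and neural cells, had 14 interior regions with 0.68 and 0.69 in SOX17FNV and 0.875 and 1.0 in SOX2. Its span also held more regions in the SOX2 libraries, with 23 and 21 called in SOX17FNV and 53 and 45 in SOX2. Plekha5 and Sox5 lie near each other on chromosome 6, with spans from 140423639 and 143828425. Between them C2cd5, from 143010920, had a log2 ratio of -0.24, whereas B4galnt3, from 120200753 near Mical3, had 0.06. Centring on the whole chromosome does not remove a shift of a stretch of it, and such a shift was not tested. Kirrel3 and Trio, genes of neuronal adhesion and axon guidance, had log2 ratios of -0.43 and -0.42, and -0.43 and -0.44 after centring. In all 10 genes of highest or lowest ratio the groups did not overlap. Leaving out a single library therefore could not turn their direction, and it changed only the size of the ratios.

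For the gene lists, the mean log2 ratio of interior regions was taken per gene, so a gene with 1 region counted as much as a gene with many. Its median over a list was -0.28 for the naive list, -0.28 for the neural progenitor list, -0.17 for the fibroblast list and 0.30 for the endoderm list, with 0.03 over all genes with an interior region. The other lists lay between -0.11 and 0.16. The fibroblast value rests on 3 genes with 8 regions. In the naive list the values ran between -0.42 in Prdm14, which had a single region, and 0.43 in Klf5, and Klf5 lies on chromosome 14. The naive genes with most regions differed, with -0.098 in Esrrb, -0.275 in Tet2, -0.012 in Tfcp2l1 and -0.282 in Nr5a2. In the endoderm list all 9 genes with a value were above 0, from 0.03 in Pdgfra to 0.71 in Gata6, which had a single interior region with pileups of 38 and 16 in SOX17FNV and 20 and 14 in SOX2. Gata4 is on chromosome 14, and Col4a1 and Col4a2, with 0.35 and 0.26, adjoin each other on chromosome 8. Pdgfra, at 0.028, lay below the median of 0.032 over all genes with an interior region. The other 4 genes of the list had no interior region and so no value. Among them Lamb1, a laminin gene, had 1 and 0 regions called in SOX17FNV and 8 and 4 in SOX2. The lists were chosen with results of these data known, and these medians are given as a description.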

How the data were processed

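ATAC-seq peak lists of 4 libraries were used, 2 per group, grouped by the labels. The members and the gene lists were chosen with earlier results of these data known. Per the submitters' processing notes, Bowtie2, SAMtools and MACS2 were used with mm10, and the sources used here give no versions, settings or read shift. The deposited lists, which have no header line, give in the narrowPeak column order a fold ratio, -log10 p and q and a score for each summit, called per library. The authors' score matched the -log10 q, multiplied by 10 and cut to a whole number, in at least 99.9869% of a list's lines. The lowest deposited -log10 q was 1.3.

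Peaks overlapping by at least 1 bp were merged. Fold and p were solved for the whole-number pileup (largest error on -log10 p 1.4e-04), and 99.97% of 19919 simulated pileups were recovered. A region's value was its highest pileup. No filter on low values was applied. Limma 3.58.1 (R 4.3.3) was run without a replicate block. In a simulation on 56427 regions it called 4% of regions changed by log2 1 and 82% by log2 2, and 6 of 56227 unchanged ones. Gene spans came from RefSeq for GRCm38.p6. Named genes were the densest 15, the 10 with most regions, the 10 longest with none, up to 4 per list and those of at least 50 kb with none, the 10 strongest regions, up to 10 called regions per direction, and the 5 most extreme genes per direction and by spacing. Alternatives covered peak thresholds, list length, overlap, distance, minimum span, scaling, left-out libraries and the replicate block. Intervals cover counting error only.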

Additional observations from a re-analysis of the deposited data

Results flagged for a closer look

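Chromosome X was outside the comparisons, and its regions are given here because they were called there as well. Of 1355 shared regions on chromosome X, 337 lay inside genes by the same rule. Their density was 0.77 per 100 kb of interior. They lay in 192 genes. Bcor, a co-repressor gene, held the most, with 12, and Klf8 and Nhsl2 held 8 each. On chromosome Y there were 0.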

How the results depend on the processing

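Interior regions numbered 8460, 2983 and 9000 with -log10 q of at least 5, of at least 10 and the strongest 50000 peaks. At these 3 settings their share of shared regions was 30.32%, 22.17% and 30.98%, their density 0.8979, 0.3166 and 0.9552 per 100 kb, its ratio to that outside 1.448, 1.352 and 1.457, and the genes holding one 5055, 2375 and 5270. Left-out libraries gave shares of 38.65% to 39.98%. The share was 43.07% and 30.6% at more than 0 and 5 kb from gene ends. The ratio was 1.655 at more than 0 kb and 1.723 with chromosomes X and Y. Interior minus outside percentile turned to 0.392, 1.23 and 0.256 at those 3 settings and 0.742 at more than 0 kb, and was 0 with 100 bp in common and -1.43 to 0 with a library left out. The width difference turned to 15.9 at -log10 q of at least 10 and 1.0 at more than 0 kb. Limma calls (total, higher, lower) were 1776, 824 and 952 with the replicate block, 4, 4 and 0 scaled by background, 66, 11 and 55 with the median summit, 344, 100 and 244 at a mean pileup of at least 20, and 43, 17 and 26 at -log10 q of at least 10. Higher calls were 16 after centring, and lower calls 72 at -log10 q of at least 5. Left-out libraries gave 0 to 401, 0 to 179 and 0 to 256 calls. The replicate numbers pair nothing in the labels, the deviations of same-numbered libraries correlated at 0.234, and with 2 pairs a pairing was not established. The 20 named called regions kept their direction at every setting that gave them a value. Of the 20, 17 were still called after centring, 14 with the median summit and 3 scaled by background. Only 2, both higher in SOX17FNV, had a value at -log10 q of at least 5, and only 2, both higher, with the strongest 50000 peaks. None had a value at -log10 q of at least 10. The ratios of the 10 named genes were recomputed only after centring, where they kept their direction, and with a library left out. The cause of these shifts was not tested. The median log2 ratio of interior regions moved by more than the spread between libraries at 9 settings and by less at 5. Median pileups were 22 to 31 reads, and no setting varied depth.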
